A study of Homo sapiens with 4 samples.

Results

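The annexin genes were examined as a group in ovarian cancer cells, with attention to ANXA2, whose number of events was the highest or close to the highest of any gene. Members were chosen by symbol, ANXA followed by digits, which took 8 of the 9885 genes in the table. They are ANXA1, ANXA2, ANXA3, ANXA4, ANXA5, ANXA6, ANXA7 and ANXA11. ANXA2 was singled out by the same event numbers that are given here, so its rank and its levels are a description and carry no test. ANXA8, ANXA8L1, ANXA8L2, ANXA9, ANXA10 and ANXA13 were not analysed here.

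RNA-seq had been made from 4 cell lines with 1 library each, to follow the mRNA profile after ECM1, a secreted extracellular matrix glycoprotein, was silenced and an isoform was put back. A8 is HEYA8, a line derived from the human ovarian cancer line HEY. A8i is HEYA8 with ECM1 stably silenced, by a short hairpin RNA delivered with a lentivirus and selected with puromycin. From A8i the lines A8i-A and A8i-B were made, with stable expression of ECM1a and of ECM1b, so the silencing is shared by all lines other than A8. The ECM1 isoforms carried a hemagglutinin tag, and no library of a line with a scrambled hairpin or an empty vector was analysed here.

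The table gives, for every gene, how many events each library held. The labels and the methods do not say which kind of event was counted, so an event is used here only as the unit of the table and not as an expression level. Since each line has 1 library, every difference below is between libraries, and no p-value can be given. In RNA from a whole culture, fewer cells with a feature and less of it per cell cannot be told apart. The libraries held 20535 to 24513 events in all. ECM1 itself had 2 events in each of the 4 libraries, which gives no check of the silencing or of the reintroduction. Of 9 ovarian and epithelial markers, 6 were in the table, with 15 to 21 events summed in a library. PAX8, the transcription factor used to mark Müllerian carcinomas, had 7 to 11, KRT8, a simple-epithelium keratin, had 5 to 7, and EPCAM, an epithelial adhesion molecule, had 0 throughout. KRT7 had 1 to 2, KRT18 had 1 throughout and WT1 had 0 to 1, so most of each sum came from PAX8 and KRT8. MUC16, KRT19 and CDH1 were not analysed here. VIM, the mesenchymal intermediate filament, had 1 to 3. CD14, a monocyte marker and the only 1 of 3 leukocyte markers in the table, had 1 event in A8i-B and 0 elsewhere. Neither of the 2 endothelial markers was analysed.

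Annexins are soluble proteins that bind phospholipid membranes when calcium rises. Each has a conserved core built of repeats of the annexin fold, in which loops hold the calcium ions, and a variable N-terminal region that sets its partners. The annexin A2 protein binds S100A10, and the pair sits at the inner and outer face of the plasma membrane, where it takes part in exocytosis, membrane repair and the activation of plasminogen, a process much studied in invasive carcinoma. From mass spectrometry and co-immunoprecipitation, the paper also reports annexin A2 as a protein that might bind ECM1a.

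On GRCh37 with the GENCODE v44 annotation, ANXA2 (ENSG00000182718) lies on the reverse strand at chr15:60639333-60695082. The annotation gives it 46 transcripts, of which 31 are protein-coding, 6 retain an intron, 5 are targets of nonsense-mediated decay and 4 have no defined coding sequence. They use 23 start sites, 29 end sites and 53 introns. A cassette exon was taken as an internal exon whose neighbours are joined directly by another annotated intron, and ANXA2 has 14 of them. Of these, 3 keep the reading frame and 4 belong to the canonical transcript, which has 13 exons and 1554 nt. Many annotated transcripts are partial, so these numbers describe the annotation and not the cells.

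**Figure D1:**
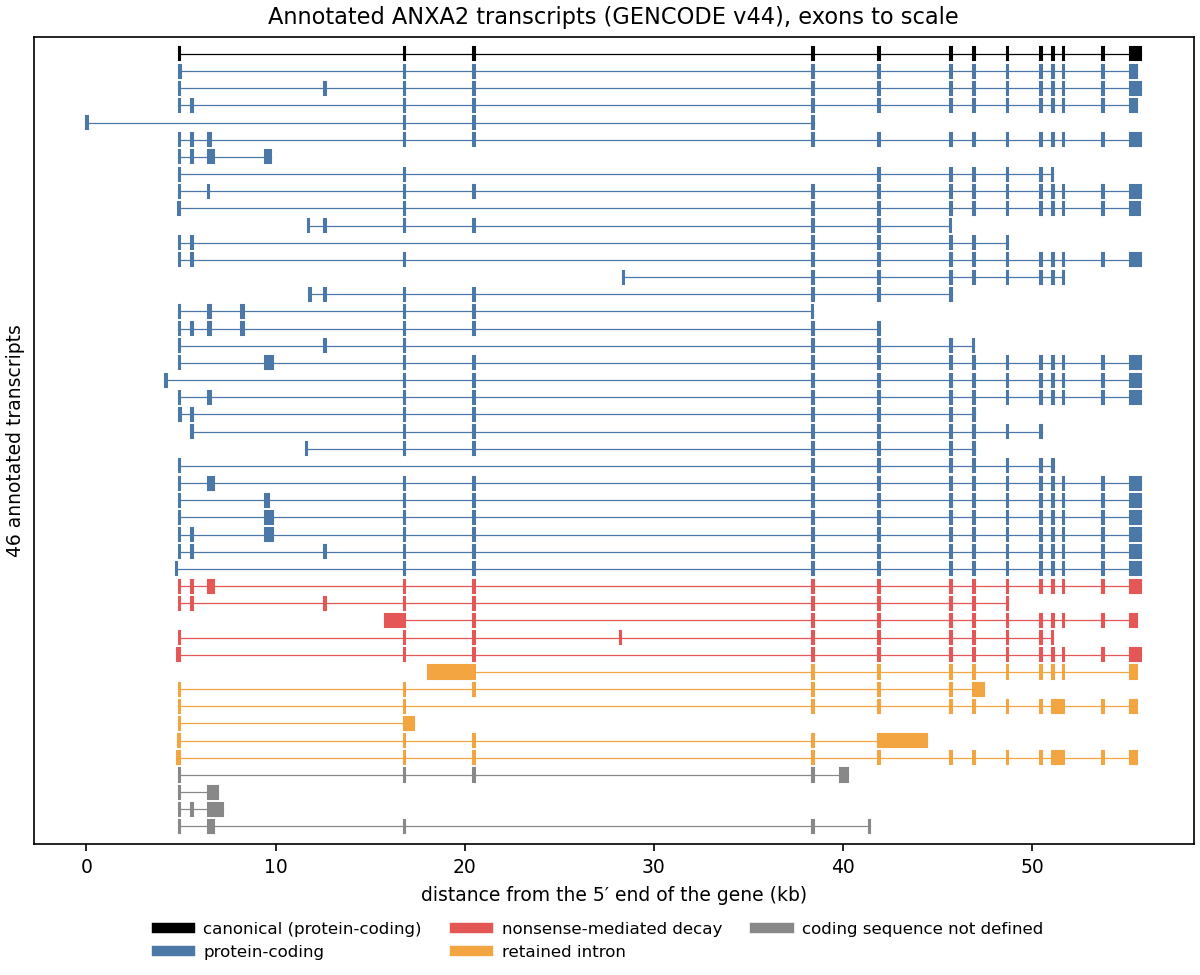
The 46 annotated transcripts of ANXA2 are drawn 5′ to 3′ against the distance from the 5′ end of the gene in kb, with exons as boxes to scale and introns as lines; colour gives the transcript type. The exons in the 3′ part recur from transcript to transcript, while those in the 5′ part vary in which are used and where transcripts start.

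The 3 cassette exons that lie wholly within the coding sequence of the canonical ANXA2 transcript are shown because they are the coding pieces that some annotated forms leave out. Capitals mark the exon, and lower case marks the last 20 bases of the intron before it and the first 6 of the intron after it, read 5′ to 3′ on the gene's strand from GRCh37.
ANXA2 exon 3: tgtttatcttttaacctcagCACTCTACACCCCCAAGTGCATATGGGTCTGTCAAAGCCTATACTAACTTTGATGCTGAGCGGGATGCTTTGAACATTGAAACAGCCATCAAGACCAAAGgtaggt
ANXA2 exon 4: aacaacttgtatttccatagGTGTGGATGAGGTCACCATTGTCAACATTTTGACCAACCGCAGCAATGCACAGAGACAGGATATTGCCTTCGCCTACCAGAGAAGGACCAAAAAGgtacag
ANXA2 exon 12: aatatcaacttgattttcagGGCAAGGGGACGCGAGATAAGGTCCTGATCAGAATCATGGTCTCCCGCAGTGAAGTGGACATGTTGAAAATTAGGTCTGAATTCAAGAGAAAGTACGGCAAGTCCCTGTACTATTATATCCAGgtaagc

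Exon 3 has 100 nt at chr15:60674541-60674640, is held by 32 transcripts and is skipped by 5. Exon 4 has 95 nt at chr15:60656628-60656722, is held by 40 transcripts and is skipped by 1. Exon 12 has 123 nt at chr15:60641274-60641396, is held by 22 transcripts and is skipped by 1. Only exon 12 of these 3 is a whole number of codons. Every one opens after AG and closes before GT, the usual ends of an intron.

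Exons 4 and 12 of ANXA2 have counterparts of the same length in its relatives. Some of these counterparts are cassette exons as well, namely exon 4 of ANXA5 at chr4:122605832-122605926 and exon 15 of ANXA11 at chr10:81917397-81917519. ANXA6 has a cassette exon of 18 nt at chr5:150490188-150490205, exon 21 of its 26, that belongs to neither place.
ANXA5 exon 4: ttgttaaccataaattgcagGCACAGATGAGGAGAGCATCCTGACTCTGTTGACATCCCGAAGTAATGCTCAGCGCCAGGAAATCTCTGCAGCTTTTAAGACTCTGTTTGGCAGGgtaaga
ANXA11 exon 15: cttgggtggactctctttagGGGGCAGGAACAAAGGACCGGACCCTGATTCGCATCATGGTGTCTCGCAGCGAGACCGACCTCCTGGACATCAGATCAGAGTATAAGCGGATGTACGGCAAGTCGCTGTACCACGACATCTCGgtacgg
ANXA6 exon 21: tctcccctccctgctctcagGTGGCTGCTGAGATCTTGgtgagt

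Exon 4 of ANXA2 and exon 4 of ANXA5 had 51 of 95 bases in common, 53.7%, when laid side by side without gaps. ANXA1 exon 4 was the nearest to ANXA2 exon 4 with 60.0%, and exon 7 of ANXA11 the farthest with 48.4%. Exon 12 of ANXA2 and exon 15 of ANXA11 had 78 of 123 bases in common, 63.4%. At that place the nearest were exon 12 of ANXA6 with 68.3% and exon 12 of ANXA4 with 67.5%, and exon 12 of ANXA3 was the farthest with 57.7%. ANXA7 has no wholly coding exon of 123 nt. In ANXA5, exon 4 was held by 5 annotated transcripts and skipped by 2, and in ANXA11, exon 15 was held by 5 and skipped by 1. The 18 nt exon of ANXA6, which keeps the frame, was held by 3 and skipped by 2.

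A form of the calcium loop of the annexin repeat reads glycine, any residue, glycine, threonine and then an acidic residue. Its codons were searched as GGNNNNGGNACNGAN, on the coding strand and in frame only, in the canonical coding sequences. All 8 annexins held it at least 1 time, against 302 of 19420 canonical coding sequences of the annotation, 1.56%, the annexins included. The motif was taken from the annexin repeat itself, so its presence in the annexins is a description and carries no test. ANXA6, whose core is a duplicated one, held 4 matches and ANXA4 held 3. ANXA3, ANXA5, ANXA7 and ANXA11 held 2 each, and ANXA1 and ANXA2 held 1. Where another residue follows the threonine there is no match, as at the start of ANXA2 exon 12, where arginine follows. The matches are therefore not a count of the calcium loops. Matches that lie within 1 exon follow for 5 members, with the fixed letters of the motif in capitals.
ANXA2 codon 120: GGgctgGGaACcGAc
ANXA1 codon 129: GGccttGGaACtGAt
ANXA5 codon 261: GGagctGGgACaGAt
ANXA4 codon 103: GGagccGGcACtGAt
ANXA11 codon 287: GGggttGGcACtGAt

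The match of ANXA2 lies at chr15:60649421-60649435 and that of ANXA1 at chr9:75775719-75775733, with codons counted from 1 at the start codon. The matches printed for ANXA5, ANXA4 and ANXA11 lie at chr4:122590865-122590879, chr2:70035038-70035052 and chr10:81923885-81923899. The other match of ANXA5, at codon 30, spans the junction of exons 3 and 4, whereas no match lies across the corresponding junction of ANXA2. A match is a description of the letters, and calcium binding was not measured.

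ANXA2, the annexin of the plasminogen-activating and membrane-repair complex, had 32 events in A8, 28 in A8i-B and 26 in both A8i and A8i-A. A8 held the highest number and the other 3 libraries lay within 2 events of each other. Its mean of 28 was the highest of all 9885 genes, whose median was 1.5. By library, its rank was 1 in A8, A8i-A and A8i-B and 2 in A8i.

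The genes that matched or passed ANXA2 differed between libraries. In A8, AC093838.4 also had 32 events, but it had 6, 6 and 12 in A8i, A8i-A and A8i-B. CPSF3L, which encodes a subunit of the Integrator complex, passed ANXA2 in A8i with 27 events. HNRNPH1, a splicing regulator of the hnRNP H family, and MUTYH, a DNA repair glycosylase, matched it in A8i at 26, and HNRNPH1 matched it again in A8i-A. In A8i-B the next genes, CENPT of the kinetochore and EEF1D of translation elongation, stood at 24. AC093838.4 has 6 transcripts in GENCODE v44, fewer than its 32 events in A8. Which annotation was used to count the events is not known.

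The spread of ANXA2 over the libraries was 6 events. Genes with a mean of at least 10 events, 188 in all, had a median spread of 5, and all genes had a median spread of 1. Of all events, ANXA2 took 0.131% in A8 (95% exact Clopper-Pearson interval 0.0893 to 0.184) and 0.127% in A8i (0.0827 to 0.185). Its share was 0.115% in A8i-A (0.0749 to 0.168) and 0.116% in A8i-B (0.0768 to 0.167). These intervals overlapped throughout, and they reflect counting error alone, as if each event were independent.

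ANXA1, a substrate of receptor tyrosine kinases and an anti-inflammatory protein that like ANXA2 binds an S100 partner, had 3 events in each of the 4 libraries. It was the only annexin with the same number throughout, and 72.7% of all genes had a lower mean.

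The annexins with a short N-terminal region had few events, as did every other member apart from ANXA2. ANXA4, found at epithelial and Golgi membranes, had 3 events in A8 and in A8i, 2 in A8i-B and 1 in A8i-A. ANXA5, the protein used to stain phosphatidylserine on dying cells, had 2 in A8 and A8i and 1 in A8i-A and A8i-B. ANXA3, a myeloid and epithelial annexin, had 1 event in A8i and in A8i-B and 0 in A8 and in A8i-A. It was the only member not listed in every library, and a count of 0 allows up to 0.0122% of the events of A8 and 0.0132% of those of A8i-A. For ANXA4 and ANXA5, the A8 and A8i libraries held the higher numbers, by 1 or 2 events.

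ANXA6, the large annexin with a duplicated core that acts in endosomal and cholesterol traffic, had 2 events in A8i-B and 3 in every other library. ANXA7 and ANXA11 have long N-terminal regions. ANXA7, first described as synexin for aggregating secretory granules, had 1 event in A8, 3 in A8i-A and 2 in both A8i and A8i-B. ANXA11, which tethers RNA granules to lysosomes and takes part in the end of cytokinesis, had 5 in A8, 4 in A8i and 3 in each of the reintroduced lines. ANXA11 was thus highest in A8 and ANXA7 lowest there.

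**Figure D2:**
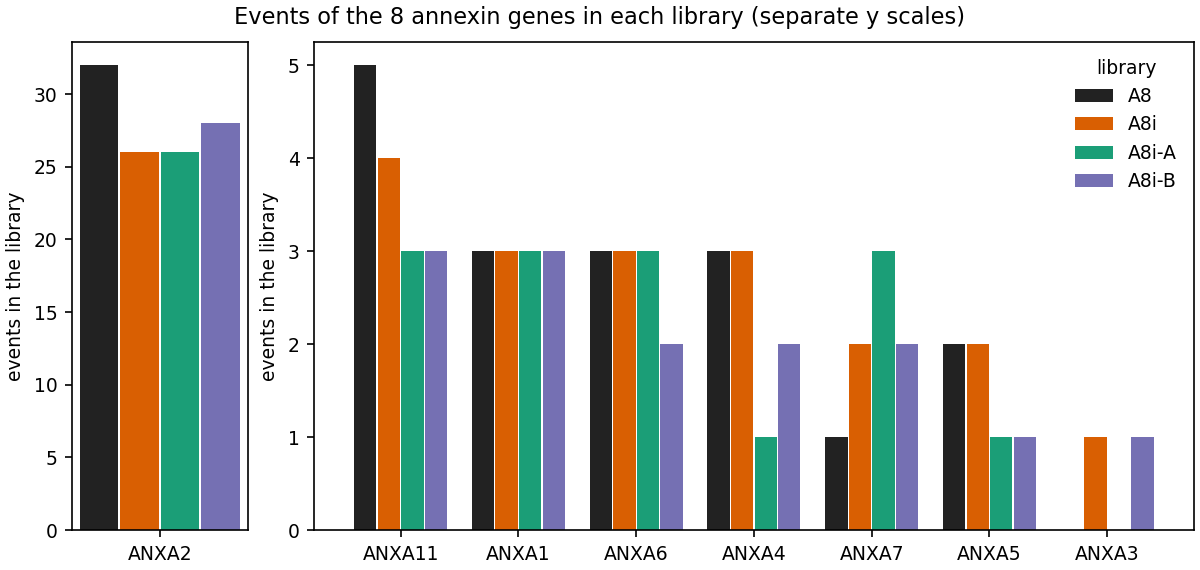
Bars give the number of events of each annexin gene in the A8, A8i, A8i-A and A8i-B libraries, 1 library per line, with ANXA2 on its own scale at the left and the other 7 genes at the right. ANXA2 lies between 26 and 32 events, and no other annexin exceeds 5.

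By mean events the order was ANXA2 at 28, ANXA11 at 3.75, ANXA1 at 3, ANXA6 at 2.75, ANXA4 at 2.25, ANXA7 at 2, ANXA5 at 1.5 and ANXA3 at 0.5. Only the step from ANXA2, lowest 26, to ANXA11, highest 5, was free of overlap over the libraries. ANXA2 was chosen for its high numbers in every library, so this gap carries no test. All other neighbours in the order overlapped. The libraries are of different lines and not replicates, so the order of these members is a description. ANXA11 exceeded 80.3% of all genes in mean events, ANXA5 46.3% and ANXA3 13.6%, so the 7 other members lay across the range of the table while ANXA2 lay at its end.

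**Figure D3:**
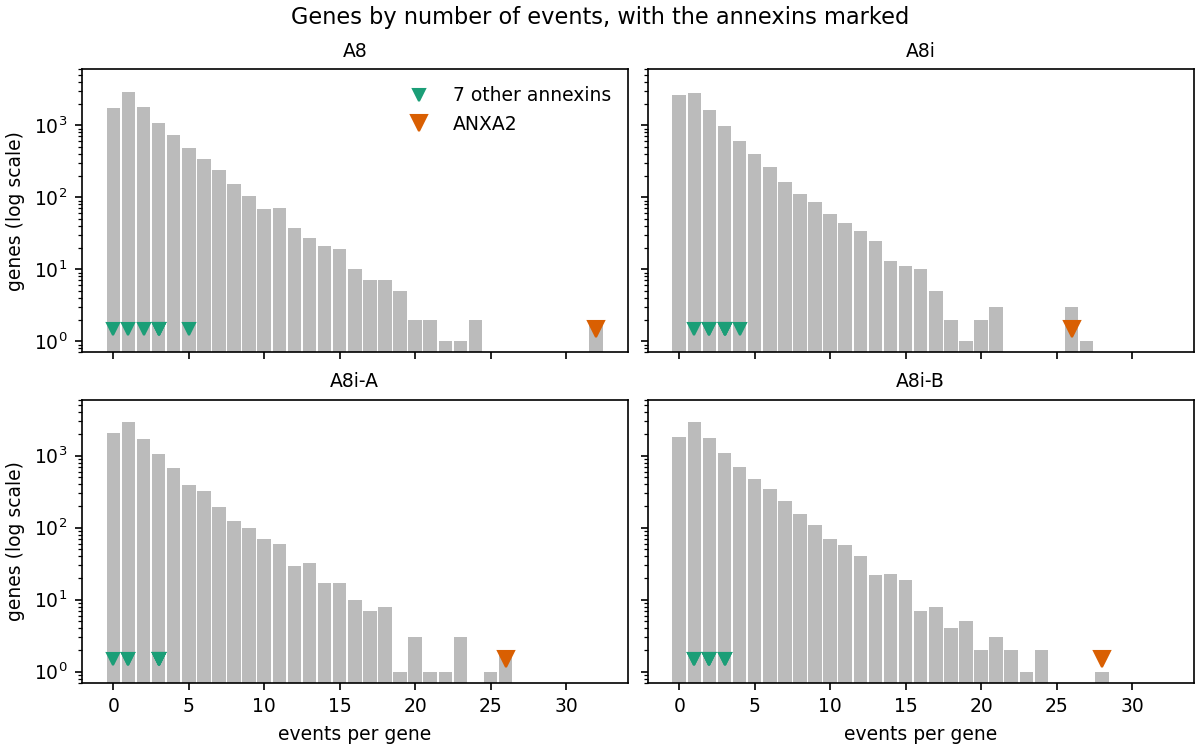
Each panel is 1 library and shows the number of genes, on a log scale, at each number of events per gene; triangles mark ANXA2 and the 7 other annexins, which overlie each other where their numbers are equal. The other annexins sit at 0 to 5 events, in the bulk of the genes, and ANXA2 sits at 26 to 32, at the far end.

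The 8 annexins together summed to 49 events for A8, 44 for A8i, 40 for A8i-A and 42 for A8i-B. ANXA2 supplied 65.3%, 59.1%, 65.0% and 66.7% of these. Without ANXA2 the sums were 17, 18, 14 and 14. An event was listed for 7 of the 8 members in A8 and A8i-A and for all 8 in A8i and A8i-B, where 73.7% to 82.2% of all genes were listed. In all 4 libraries together, 7 of 8 members and 5986 of 9885 genes, 60.6%, had an event.

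The other members lie on 5 chromosomes of GRCh37, ANXA1 (ENSG00000135046) at chr9:75766781-75785309 and ANXA4 (ENSG00000196975) at chr2:69871557-70054244, both on the forward strand. ANXA3 (ENSG00000138772), on the forward strand at chr4:79472901-79531605, and ANXA5 (ENSG00000164111), on the reverse strand at chr4:122589101-122618150, share a chromosome. ANXA7 (ENSG00000138279) at chr10:75134859-75173834 and ANXA11 (ENSG00000122359) at chr10:81910645-81965328 also do, both on the reverse strand, and ANXA6 (ENSG00000197043) lies on the reverse strand at chr5:150480267-150537376.

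The annexins differ in how much annotation they offer for counting. ANXA2, with 46 transcripts, stood apart from ANXA6 with 16, ANXA4 with 12, ANXA5 with 11, ANXA3 and ANXA11 with 10, ANXA1 with 8 and ANXA7 with 5. The median over the 9818 genes matched to the annotation was 9 transcripts, 17 introns and 2 cassette exons. ANXA2 was 207th in transcripts, 360th in introns and 160th in cassette exons among them.

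Per annotated transcript, ANXA2 had a mean of 0.609 events, ANXA7 0.40, ANXA1 and ANXA11 0.375, ANXA4 0.188, ANXA6 0.172, ANXA5 0.136 and ANXA3 0.050. ANXA2 remained first on this scale, but the gap to the next member shrank and ANXA7, with the fewest transcripts, moved from sixth to second. The median of all matched genes was 0.176, and 6.12% of them lay above ANXA2. Many of those have few transcripts. Among the 1550 genes with at least 20 transcripts, 11 lay above ANXA2, which is 0.710%. This limit was not planned and leaves out the genes with few transcripts, where high ratios are most common. ANXA2 was chosen by its number of events, which enters every such ratio, so its place here and on the scales below carries no test.

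Per kb of the canonical transcript, ANXA2 had 18.0 events, ANXA1 2.14, ANXA6 0.952, ANXA5 0.916, ANXA4 0.849, ANXA7 0.819, ANXA11 0.557 and ANXA3 0.349. On this scale the median of all genes was 0.492 and ANXA2 was 10th of 9778. ANXA11, second in events, fell behind because its canonical transcript is the longest of the group at 6734 nt. Per annotated intron, ANXA2 had 0.528 events, ANXA1 0.20, ANXA11 0.144, ANXA7 0.111, ANXA4 0.0978, ANXA5 0.0882, ANXA6 0.0724 and ANXA3 0.0263, with a median of 0.0972 over all genes. ANXA2 was first among the annexins on each of the 3 scales and ANXA3 last.

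ANXA2 had the highest mean of all genes, so other genes with as many annotated forms necessarily had fewer events on average. Their values are given as a description. The 214 other genes with at least 46 transcripts had a median mean of 3 events and a highest mean of 24.25, and 26 of them reached a mean of 10. The 200 other genes with at least 14 cassette exons had a median mean of 3, a highest of 22.75, and 25 at a mean of 10 or more. Across the 9818 genes, the rank correlation of mean events was 0.466 with annotated transcripts, 0.434 with cassette exons, 0.349 with introns and -0.0455 with the length of the gene. Genes are not independent replicates and share the libraries and the annotation, so these are given without a p-value.

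**Figure D4:**
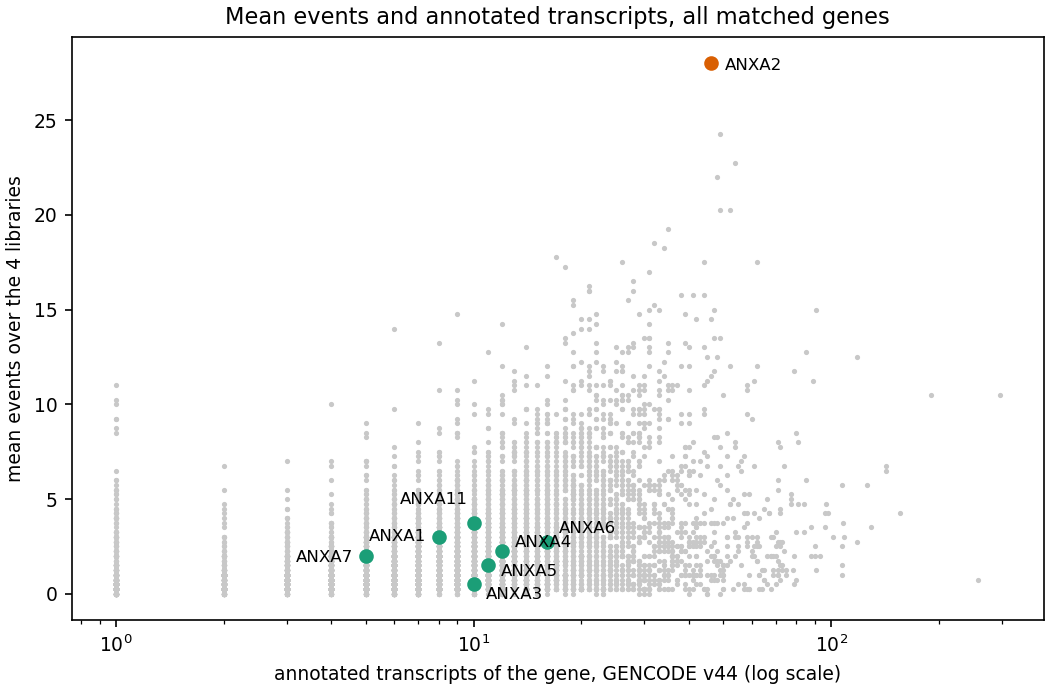
Each grey point is a gene matched to the annotation, with its number of annotated transcripts on a log axis and its mean events over the 4 libraries; the annexins are coloured. ANXA2, at 46 transcripts and a mean of 28 events, lies above every other gene, while the 7 other annexins lie at 5 to 16 transcripts and at most 3.75 events.

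ANXA2 also differed from its relatives in the copies of its sequence elsewhere in the genome. Of the 1524 31-mers in its canonical transcript, 721, 47.3%, occur in transcripts of other genes, all in the 3 processed pseudogenes ANXA2P2 (46.5%), ANXA2P1 (8.33%) and ANXA2P3 (4.59%). The share was 3.32% for ANXA7, 3.24% for ANXA4 and 2.63% for ANXA11, and 0% for ANXA1, ANXA3, ANXA5 and ANXA6. Reads that lie wholly within such stretches could be assigned to either copy, so the number of ANXA2 may be uncertain on this account. Sharing was counted for 31-mers and not at the length of the reads. The part of these copies in the event numbers was not tested, and the pseudogenes themselves were not analysed here.

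Silencing of ECM1 was followed from A8 to A8i. ANXA2 had 26 events in A8i and 32 in A8, a ratio of 81.3% (95% exact interval 46.5 to 141), beside 83.8% (82.2 to 85.3) for all events of the libraries. Relative to the library totals the ratio of ANXA2 was 97.0%. The annexins together stood at 89.8% (58.4 to 138), and without ANXA2 at 106% (51.5 to 219). Relative to the library totals these were 107% and 126%, so that the direction of the annexin sum turned with the scaling. All 3 intervals include the ratio of the whole libraries. On the scale of events plus 1, ANXA3 alone was at least 2-fold higher in A8i, by 1 event, where 8.62% of all genes were, and no member was at least 2-fold lower, where 20.2% of all genes were. Among genes with an event in all 4 libraries, which leaves out ANXA3, 0 members were at least 2-fold higher, where 3.04% of all such genes were. The number was the same in both libraries for 4 of 8 members and for 41.7% of all genes.

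Reintroduction of ECM1a was followed from A8i to A8i-A. ANXA2 had 26 events in both libraries, a ratio of 100% (55.8 to 179), while all events stood at 110.5% (108 to 113). The annexins together were at 90.9% (57.7 to 143). ANXA4, with 1 event after 3, and ANXA3, with 0 after 1, were at least 2-fold lower in A8i-A, where 11.1% of all genes were. No member was at least 2-fold higher, against 18.1% of all genes. Of the 8 members 1 was higher by any margin, ANXA7, and 4 were lower, where 33.6% of all genes were higher and 23.3% lower.

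Reintroduction of ECM1b was followed from A8i to A8i-B. ANXA2 had 28 events after 26, a ratio of 108% (60.9 to 191), beside 118% (116 to 120.2) for all events. The annexins together were at 95.5% (61.0 to 149). No member was 2-fold apart in either direction, whereas 20.4% of all genes were at least 2-fold higher and 9.21% at least 2-fold lower. Only ANXA2 was higher by any margin, and 4 members were lower by 1 event each, where 38.0% of all genes were higher and 20.2% lower by any margin. Relative to the library totals ANXA2 was not higher, at 91.2%. The comparisons with A8i share that library, so their values are not independent of each other.

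Between the isoforms, A8i-A against A8i-B, ANXA2 stood at 92.9% (52.3 to 164) and all events at 93.6% (91.9 to 95.3). The annexins together were at 95.2% (60.2 to 150.5), which became 102% relative to the library totals, and without ANXA2 both libraries had 14. ANXA3 was at least 2-fold lower in A8i-A, 0 against 1, where 16.2% of all genes were, and no member was at least 2-fold higher, where 11.7% were. On the share of the library total, and among genes with an event in all 4 libraries, 0 members were at least 2-fold lower. Of all genes with an event in all 4 libraries, 6.63% were, and the share of all genes on the scale of library totals is not given. The median log2 ratio of the members was 0 here and for A8i against A8, and -0.16 for A8i-A and for A8i-B against A8i, beside 0 over all genes in each comparison. With 0 to 5 events in the members other than ANXA2, a change smaller than several-fold was not detectable at this depth.

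The genes whose numbers were most like those of ANXA2, by the summed absolute difference over the 4 libraries, were HNRNPH1, EEF1D, MUTYH, QARS and CPSF3L. HNRNPH1 had 24, 26, 26 and 21 events in A8, A8i, A8i-A and A8i-B, a summed difference of 15. EEF1D had 23, 19, 25 and 24, and MUTYH had 19, 26, 23 and 20. QARS, the glutaminyl-tRNA synthetase, had 24, 18, 20 and 19, and CPSF3L had 19, 27, 18 and 17. QARS, like ANXA2, was highest in A8 and had its other 3 libraries within 2 events of each other. All carry 48 to 54 annotated transcripts, close to the 46 of ANXA2.

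The S100 proteins are small calcium-binding dimers, several of which bind the N-terminal region of an annexin. Of 16 listed, 5 were in the table and summed to 6, 6, 4 and 4 events in A8, A8i, A8i-A and A8i-B, the order kept for the genes that follow. S100A10, the partner of ANXA2, had 1 event in A8 and 0 in the other libraries. S100A1 likewise had 1 in A8 and 0 elsewhere, and S100A16 had 3 in A8i and 1 in the other libraries. S100A13 had 2 and S100A2 had 1 throughout. At least 2-fold lower in A8i than in A8 were 2 of the 5, by 1 event each, beside 20.2% of all genes. At least 2-fold higher was 1, S100A16, beside 8.62%.

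Genes of plasminogen activation, the extracellular process in which the ANXA2 and S100A10 complex serves as a receptor, numbered 8 of 11 in the table. A8 held 22 of their events, against 10 for A8i, 20 for A8i-A and 21 for A8i-B. Most of the difference lay in CTSB, which encodes the protease cathepsin B and had 12, 3, 9 and 13 events. PLAU, the urokinase, had 2, 2, 2 and 1, its receptor PLAUR had 3 in every library, and PLAT, the tissue activator, had 2, 1, 3 and 1. PLGRKT, a plasminogen receptor, and MMP2, a matrix protease, had 1 event or none. At least 2-fold lower in A8i than in A8 were 3 of the 8 genes, beside the 20.2% of all genes. At least 2-fold higher than in A8i were 4 of 8 in A8i-A, beside 18.1%, and 2 of 8 in A8i-B, beside 20.4%. ANXA2 did not share the low number of CTSB in A8i. For CTSB the log2 ratio of A8i to A8 was -1.70, and 7 of the 144 genes with at least as many events in A8 had a lower one. The median of the 144 was -0.31. These genes were taken by their number in A8, which enters the ratio and favours low values. CTSB was set apart by these same numbers, so its place is a description and carries no test.

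Partners of annexins in membrane repair and traffic numbered 10 of 16, with sums of 21, 20, 20 and 23 events. PDCD6, the calcium sensor ALG-2, held 11, 11, 11 and 9 of these. AHNAK, the giant scaffold that binds the ANXA2 and S100A10 complex, had 1, 1, 1 and 3, MYOF, the ferlin myoferlin, had 2, 3, 1 and 3, and DYSF, the ferlin dysferlin, had 2 in A8 and 0 in the other lines. PDCD6IP, the ESCRT adaptor ALIX, had 2, 1, 1 and 3. CAV2, a caveolin, VPS4B, an ATPase of the ESCRT pathway, and SRI, the calcium-binding protein sorcin, had 1 event or none in each library. At least 2-fold higher were 1 of the 10 for A8i against A8, 2 for A8i-A against A8i, 3 for A8i-B against A8i and 1 for A8i-A against A8i-B, beside 8.62%, 18.1%, 20.4% and 11.7% of all genes. At least 2-fold lower were 2, 1, 0 and 3 in the same comparisons, beside 20.2%, 11.1%, 9.21% and 16.2%. These few genes lie near the shares of all genes.

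A list of proteins with C2 domains, rather than the annexin fold, had 12 of its 21 genes in the table. The class includes proteins that bind phospholipid with calcium, but not every member does. These 12 genes summed to 57, 43, 44 and 51 events. CPNE1, a copine, came closest to ANXA2 with 15, 14, 18 and 17 events, and CPNE7 had 11, 11, 9 and 10. The synaptotagmin-like SYTL4 had 7, 0, 2 and 9, and SYTL1 had 8, 4, 1 and 0, a wider spread than that of ANXA11 or ANXA1. ESYT2, an extended synaptotagmin, had 2, 1, 0 and 1. RASAL2, a Ras GTPase-activating protein, had 2 events in A8 and SYT11, a synaptotagmin, had 1, and both had 0 in the other lines. Of the 12, the comparisons A8i against A8, A8i-A against A8i, A8i-B against A8i and A8i-A against A8i-B had 0, 1, 1 and 1 at least 2-fold higher, beside 8.62%, 18.1%, 20.4% and 11.7% of all genes. At least 2-fold lower were 3, 2, 1 and 2, beside 20.2%, 11.1%, 9.21% and 16.2%, so that these counts too lie near those of all genes.

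Of 8 other proteins whose binding to ECM1a or to a mutant of it the study tested, 5 were in the table. These 5 summed to 15, 12, 13 and 11 events. The paper reports that integrins αX and β2, encoded by ITGAX and ITGB2, bound ECM1a. It gives integrin β1, plakoglobin, calnexin and S100A9 as proteins that might bind ECM1a. Plakophilin-1 and S100A8 are given as able to bind the mutant. The genes of S100A9, plakophilin-1 and S100A8 were not in the table. ITGB1, the integrin β1 chain, had 7, 6, 5 and 6, and CANX, the chaperone calnexin, had 4, 4, 4 and 3. ITGB2 had 3, 2, 3 and 2, ITGAX had 1 event in A8 and 0 elsewhere, and JUP, plakoglobin, had 1 in A8i-A and 0 elsewhere. Each of them had fewer events than ANXA2 in every library. None of the FPR1, FPR2 and FPR3 receptors of annexin A1 was in the table.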

How the data were processed

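RNA-seq libraries of A8, of A8i and of the reintroduced lines A8i-A and A8i-B were analysed, 1 for each of the 4, grouped by the sample titles. Per the methods and the submitters' processing notes, the authors trimmed reads with Trim Galore, checked them with FastQC, mapped them with TopHat to hg19 and estimated expression with Cufflinks 2.2.1. The notes also name GRCm38, a mouse build, but 9818 of the 9885 gene identifiers (99.3%) matched GENCODE v44 on GRCh37, the same assembly as hg19, whose coordinates are used. The deposited values are whole numbers of events per gene, not scaled to depth; how events were called is not given in the sources used here, and the methods give the sequencing yield as a range and not for each library. The number of per-sample columns left unused was 0.

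Ratios of libraries and shares carry 95% exact Clopper-Pearson intervals. Per-gene ratios were log2 of (events + 1) over (events + 1), with a limit of 2-fold. This scale understates changes at low numbers and makes 0 against 1 a 2-fold difference. A check on simulated numbers with planted changes and no noise between libraries tested the computation of the rule and not its error rate. Events per transcript, kb or intron used the annotated gene and its Ensembl canonical transcript. Sequence sharing was counted as 31-mers found in transcripts of other genes. Every annexin, the 5 genes most like ANXA2, the genes with at least as many events as ANXA2 in a library, and list members at least 2-fold apart in any pair were named; other list members, CENPT and EEF1D at A8i-B, and the markers were named after their values were seen. The annexins and the lists were chosen with earlier results of these data known. Alternatives were the share of the library total, a pseudocount of 0.1, at least 2 events, genes listed in all 4 libraries, ties counted above ANXA2, the median in place of the mean, and sums without ANXA2 or per annotated transcript. Python 3.11.15, numpy 2.4.6, pandas 2.3.3, scipy 1.17.1 and matplotlib 3.10.9 were used.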

Additional observations from a re-analysis of the deposited data

How the results depend on the processing

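No paired analysis was possible because each line has 1 library, and for the same reason no library could be left out of a group. With ties counted above it, ANXA2 was 2nd in A8 and A8i-A and 4th in A8i, and its place in A8i-B was unchanged. On events per annotated transcript, the share of ANXA2 in the annexin sum was 29.1% for A8, 23.0% for A8i, 25.7% for A8i-A and 28.1% for A8i-B. Scaled to the library total, the median log2 ratio of the members was 0.19 for A8i against A8, -0.29 for A8i-A against A8i and -0.35 for A8i-B against A8i, and 0 members were at least 2-fold lower in A8i-A than in A8i-B. Genes with an event in all 4 libraries leave out ANXA3. Of the members among them, 0 were at least 2-fold higher in A8i than in A8, beside 3.04% of all such genes. At least 2-fold lower were 1 in A8i-A against A8i, beside 4.36%, and 0 in A8i-A against A8i-B, beside 6.63%. A pseudocount of 0.1 left all 12 values it was applied to on their side, and the median kept all 8 places of the order. The low numbers of the members other than ANXA2 and the unknown kind of event limit every comparison.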
